A study of Mus musculus with 2 samples.

Results

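The genes described here encode 4 sheddases of the ADAM family (Adam8, Adam9, Adam10 and Adam17), 3 matrix metalloproteinases (Mmp2, Mmp12 and Mmp14) and 3 tissue inhibitors of metalloproteinases (Timp1, Timp2 and Timp3). These 10 genes were taken by symbol from the 53801 genes listed in the count files of sham microglia. Microglia were sorted as CD11c-Ly6G-CD11b+CD45low cells from the ipsilesional hemisphere of Cx3cr1(CreER/wt) mice 3 days after sham surgery, and each of the 2 libraries came from 1 mouse. These mice carry a tamoxifen-inducible Cre in place of 1 Cx3cr1 allele, in every cell that uses that promoter, on a C57BL/6 background. Both mice received tamoxifen at 75 mg/kg/day for 4 days, starting 14 days before surgery, and are labelled as males of 8 to 10 weeks, although the methods of the study state an older range and both sexes. The libraries of stroke mice were not analysed here. With 1 group of 2 libraries, no test between conditions was possible, and values are given per library with the spread between the 2 mice.

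ADAM proteases and MMPs hold a zinc ion in their active site. ADAM10 and ADAM17 sit in the cell membrane and cut the outer part off membrane proteins such as TNF, cytokine receptors and Notch, while MMPs cut matrix proteins and other proteases. TIMPs block MMPs and some ADAM proteases by placing their first cysteine on the zinc. TIMP2 also holds pro-MMP2 on MMP14 so that a second MMP14 can activate it.

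The coding bases of the zinc-binding site are given for the 7 protease genes. Each line gives the strand that is read, 5′ to 3′, from GENCODE M21 transcripts on GRCm38, and the capitals mark the codons of the 3 zinc-binding histidines.
Adam8, chr7:139987893-139987925, minus strand, exon 11: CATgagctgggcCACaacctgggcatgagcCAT
Adam9, chr8:24990326-24990358, minus strand, exon 11: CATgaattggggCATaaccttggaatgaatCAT
Adam10, chr9:70754296-70761585, plus strand, exons 9 and 10: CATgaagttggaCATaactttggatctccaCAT
Adam17, chr12:21336732-21336764, minus strand, exon 12: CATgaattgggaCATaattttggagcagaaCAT
Mmp2, chr8:92839279-92839311, plus strand, exon 8: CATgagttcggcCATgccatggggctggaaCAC
Mmp12, chr9:7352914-7352946, plus strand, exon 5: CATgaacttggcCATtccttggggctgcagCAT
Mmp14, chr14:54437627-54437659, plus strand, exon 5: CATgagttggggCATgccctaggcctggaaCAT

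Each site was found by an amino acid pattern that fixes its histidines, a glutamate and a glycine. Part of the bases therefore had to match in every gene. Of the 33 bases of this site, 15 were identical in all 7 genes, which includes those fixed by the pattern. Pairs of ADAM genes shared 19 to 26 bases, pairs of MMP genes 23 to 27, and an ADAM and an MMP gene 18 to 25. The site of Adam10 is split by an intron, so that its 33 bases span 7290 bases of the genome, and the other 6 sites lie in 1 exon each. The inhibitors share the start of the mature protein, where the capitals mark the codons of the first 2 cysteines, the first of which binds the zinc of the protease.
Timp1, chrX:20871111-20871137, plus strand, exon 2: TGTagcTGTgccccaccccacccacag
Timp2, chr11:118354986-118355012, minus strand, exon 1: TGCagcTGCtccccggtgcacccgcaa
Timp3, chr10:86300923-86300949, plus strand, exon 1: TGCacaTGCtctcccagccatccccag

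The 3 TIMP pairs shared 16 to 18 of these 27 bases, which includes bases fixed by the amino acid pattern used to find the site. The RNA levels of the 3 TIMP genes in the sorted cells were far apart. Timp2 was the highest of the 10 genes in both libraries, and Timp1 and Timp3 were the lowest in both, with 2 and 3 counts in library 1.

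The depth was 23381026 counts on genes in library 1 against 41142609 in library 2. A gene with no count could be present at up to 3 counts, which is 0.128 and 0.0729 counts per 1000000 counts on genes (CPM) in these libraries. Intervals and limits cover counting error only. The 10 microglia markers were each counted at least 10 times in both libraries and summed to 51226 CPM in library 1 against 47240 CPM in library 2. Of these markers, 5 were higher in library 2, while Csf1r and Sall1 were over 2-fold lower (log2 ratios −1.33 and −1.20). When the median of genes with like GC content and length was subtracted, the log2 ratios of Csf1r and Sall1 were 0.21 and 0.03. The libraries stood apart in 3 marker lists. The 16 neutrophil genes summed to 4951 CPM in library 1 against 60138 CPM in library 2, led by Ngp (749 and 16031 CPM) and S100a8 (1396 and 14266 CPM), and 15 of the 16 genes were higher in library 2. Choroid plexus markers had 24.5 and 373 CPM, mostly from Ttr (21.9 and 356 CPM). Transcript length also moved with the ratio between the libraries. The median log2 ratio of library 2 over library 1 was 0.17 for transcripts of 1657 to 2143 nucleotides and −1.05 for those of at least 6443 nucleotides.

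The inhibitor Timp2 led the order of levels, followed by the sheddases Adam10 and Adam17. Levels between genes are given per length, as transcripts per 1000000 (TPM) over the longest annotated transcript. Timp2 had 467 TPM in library 1 and 50.5 TPM in library 2, the highest value of the 10 genes in each. Adam10 had 160 and 38.4 TPM, and Adam17 had 135 and 46.1 TPM. Mmp14, which encodes a membrane-bound MMP, had 55.8 and 18.1 TPM, and Mmp2, which encodes gelatinase A, had 43.6 and 25.2 TPM. Adam9 had 42.1 and 10.8 TPM. Adam8, which encodes a sheddase of leukocytes, had 11.96 and 39.4 TPM and was the only one of these 7 genes higher in library 2. Mmp12, which encodes macrophage elastase, was well below them with 2.01 and 0.844 TPM. Timp1 had 0.215 and 0.696 TPM, and Timp3 had 0.0602 and 0.418 TPM.

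The ranges over the 2 mice of 7 of the 9 neighbouring pairs in this order overlapped. The exceptions were the steps from Adam8 down to Mmp12 and from Mmp12 down to Timp1. Both genes of a pair were read in the same library, and an overlap of ranges leaves this pairing out. Within each library, Timp2 was above Adam10, Adam17 above Mmp14 and Mmp2 above Adam9. Timp1 was also above Timp3 in each, on 2 and 3 counts in library 1. Among the upper 7 genes, Adam10 was above Adam17 and Mmp14 above Mmp2 in library 1 only. Adam8 was the lowest of these 7 genes in library 1 and the third of all in library 2. The mean level of Timp2 was above that of 96.3% of all counted genes, those of Adam10 and Adam17 above 89.8% and 88.9%, and that of Mmp12 above 15.0%. The mean of Timp2 came mostly from library 1 (467 against 50.5 TPM), and these shares were not computed per library. Counted means at least 10 counts in both libraries.

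**Figure D1:**
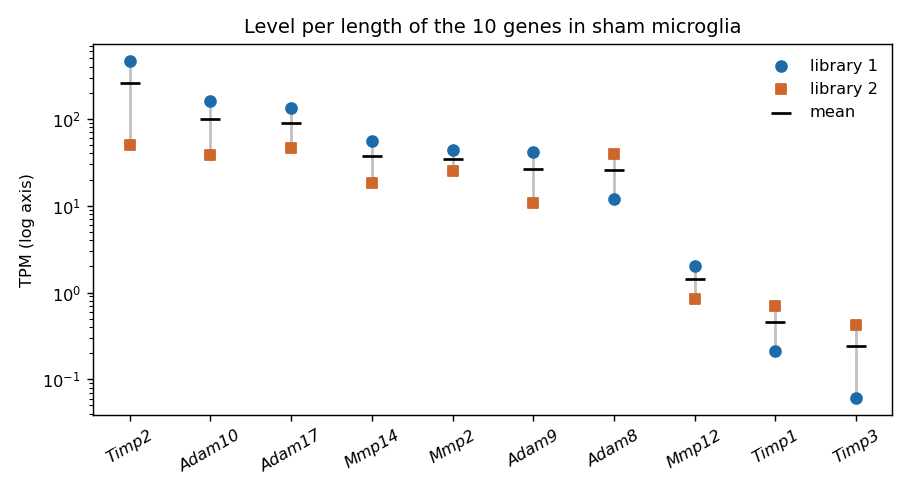
Level of each of the 10 genes in TPM on a log axis, with a point for library 1, a square for library 2 and a bar for their mean. Timp2 is highest in both libraries at 467 and 50.5 TPM, and Adam8, Timp1 and Timp3 are the genes whose square lies above the point.

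Expressed as a share of the summed level of the 10 genes, the TIMPs took 50.9% in library 1 and 22.4% in library 2, nearly all of it from Timp2. The 4 ADAM genes took 38.0% and 58.5%, and the 3 MMP genes 11.0% and 19.1%. The summed level of the 3 TIMP genes was 1.04 times that of the 7 protease genes in library 1 and 0.289 times in library 2. This compares RNA sums only, because not every TIMP blocks each of the 7 proteases. Within the group of Timp2, Mmp14 and Mmp2, the level of Timp2 was 8.37 times that of Mmp14 in library 1 and 2.79 times in library 2. It was above Mmp14 in both mice, while Mmp14 was 1.28 times Mmp2 in library 1 and 0.718 times in library 2. Adam10 was 1.18 times Adam17 in library 1 and 0.832 times in library 2, so the order of these 2 sheddases was not the same in the 2 mice.

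The ratio between the libraries was read for the 8 genes counted in both. Of these 8 genes, 5 were over 2-fold lower in library 2 and 1 was over 2-fold higher. Over all 13445 counted genes, 25.9% were over 2-fold lower, 5.74% were over 2-fold higher and 31.7% were over 2-fold apart in either direction. The median log2 ratio was −1.29 over the 8 genes and −0.26 over all counted genes. With TMM scaling these medians were −1.06 and −0.03, and with DESeq2 size factors −1.02 and 0.01. Of all genes over 2-fold apart, 81.9% were lower in library 2, against 70.3% with TMM scaling and 67.2% with DESeq2 size factors. Under these 3 scalings Adam8 was above 0 and the other 7 genes below 0, with Adam17 inside a 2-fold difference with DESeq2 size factors. One library was set against one library, so no ratio below has a replicate check, and in sorted bulk cells fewer cells of a type and less RNA per cell cannot be told apart.

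Timp2 (chromosome 11 of GRCm38, 118301069 to 118355740) was furthest apart. It had 18282 counts in library 1 against 4267 in library 2, or 782 and 104 CPM (443 ± 480, SD, n = 2). Its log2 ratio was −2.91 (95% interval of counting −2.96 to −2.87), 7.54-fold lower in library 2. Only 2.06% of all counted genes were further apart in either direction. Border macrophage markers, summed over 6 genes, had 484 and 273 CPM. Of these 6 genes, Mrc1 and Cd163 were over 2-fold lower in library 2. The other 4 were within 2-fold, and 1 of them, Ms4a7, was higher in library 2. The part of these markers in the lower level of Timp2 was not tested.

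The general sheddases were lower in library 2 as well. Adam10 (chromosome 9, 70678997 to 70780229), whose product cuts Notch receptors, had 7756 and 4014 counts, or 332 and 97.6 CPM (215 ± 166, log2 ratio −1.77, interval −1.82 to −1.71). Adam17 (chromosome 12, 21323509 to 21373632), which encodes the TNF-converting enzyme, had 6376 and 4697 counts, or 273 and 114 CPM (193 ± 112, log2 ratio −1.26, interval −1.31 to −1.20). Both genes were over 2-fold lower in library 2, Adam17 by the smaller ratio. Adam9 (chromosome 8, 24949611 to 25016927) had 1797 and 999 counts, or 76.9 and 24.3 CPM (50.6 ± 37.2), a log2 ratio of −1.66 (interval −1.78 to −1.55). Exons of Adam17 overlap Iah1 on the other strand, with 356 and 914 counts, and whether counting used the strand is not given in the sources used here.

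Adam8 (chromosome 7, 139978932 to 139992562) went the other way. It had 463 counts in library 1 against 3297 in library 2, or 19.8 and 80.1 CPM (49.97 ± 42.7), a 4.05-fold higher level in library 2 (log2 ratio 2.02, interval 1.88 to 2.16). Among all counted genes, 8.66% were further apart. Adam8 is known to be expressed by neutrophils, and 15 of the 16 neutrophil markers were higher in library 2 as well, with sums of 4951 and 60138 CPM. The sort kept Ly6G-negative cells, and Ly6g RNA had 15.4 and 211 CPM. The markers' part in the level of Adam8 was not tested. Gm16201, whose exons overlap Adam8 on the other strand, had 21 and 46 counts.

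The 3 MMP genes were all lower in library 2, 1 of them over 2-fold. Mmp14 (chromosome 14, 54431612 to 54445364) had 1906 and 1333 counts, or 81.5 and 32.4 CPM (57.0 ± 34.7, log2 ratio −1.33, interval −1.43 to −1.23). Mmp2 (chromosome 8, 92827291 to 92853420) had 1415 and 1765 counts, or 60.5 and 42.9 CPM (51.7 ± 12.5), the smallest difference among the 8 genes (log2 ratio −0.50, interval −0.60 to −0.39). Of the counted genes, 56.4% were further apart than Mmp2. Mmp12 (chromosome 9, 7344381 to 7369499) had 95 and 86 counts, or 4.06 and 2.09 CPM. Its log2 ratio was −0.96, and its interval of −1.40 to −0.52 reached across a 2-fold difference. Mmp2 is a gene of fibroblasts and other stromal cells in many tissues. Of the 7 pericyte or fibroblast markers none reached 10 counts in both libraries, with 15 and 36 counts in all. The part of such cells in the level of Mmp2 was not tested.

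**Figure D2:**
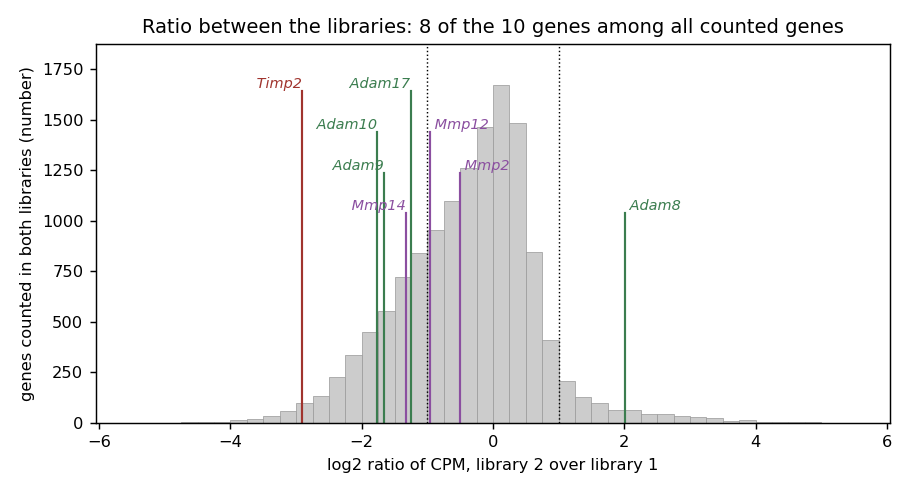
Histogram of the log2 ratio of CPM, library 2 over library 1, for the 13445 counted genes, with a line for each of the 8 genes counted in both libraries and dotted lines at a 2-fold difference. Timp2 lies at −2.91 and Adam8 at 2.02, and Mmp2 and Mmp12 lie inside the dotted lines.

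Timp1 and Timp3 were at or under the limit of 3 counts in library 1 and above it in library 2. Timp1 (chromosome X, 20870166 to 20874735), an inhibitor that astrocytes and other cells raise after injury, had 2 counts in library 1 against 14 in library 2, or 0.0855 and 0.340 CPM. The 95% exact binomial intervals of these levels were 0.0104 to 0.309 CPM and 0.186 to 0.571 CPM, which overlap, and the ratio of 3.98 had an interval of 0.914 to 36.1. Timp3 (chromosome 10, 86300372 to 86349506), the TIMP that also blocks ADAM17, had 3 and 45 counts, or 0.128 and 1.09 CPM, a ratio of 8.52 (interval 2.74 to 42.9). Choroid plexus markers summed to 24.5 and 373 CPM, with 6 of 6 genes higher in library 2. Astrocyte markers summed to 12.5 and 21.2 CPM, with 3 of 5 genes higher in library 2, while the defining marker Gfap had 1.15 and 0.778 CPM. The part of either cell type in the counts of Timp1 and Timp3 was not tested. Both TIMP genes lie inside a synapsin gene on the other strand. Timp1 lies in Syn1, which had 22 and 19 counts, with no shared exon bases, and Timp3 lies in Syn3, which had 2 and 4 counts, with some shared exon bases. Syn2 had 20 and 3 counts. The 3 neuron markers had 54 counts in library 1 and 154 in library 2.

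The ratios were also read against those of other genes of like length and GC content. The longest transcripts of the 8 genes run from 3078 nucleotides for Mmp2 to 4593 for Adam10, and the median log2 ratio of all counted genes in the length bins that hold them went from −0.05 to −0.77. When the median of genes with like GC content and length was subtracted, 3 of the 8 genes were over 2-fold lower in library 2 and 1 was over 2-fold higher. These were Timp2 at −2.08, Adam9 at −1.36, Adam10 at −1.34 and Adam8 at 2.85. Adam17 was at −0.80 and Mmp14 at −0.85, inside a 2-fold difference. Mmp12 was at −0.85 and Mmp2 at −0.15, so that 7 of the 8 genes stayed below 0. With the same adjustment, 12.7% of all counted genes were over 2-fold lower and 9.70% over 2-fold higher. Adam8 was placed by its longest transcript, which has a retained intron and 3669 nucleotides, while its median transcript has 2707. The length bins of these lengths had median log2 ratios of −0.49 and −0.05, so the size of its adjusted ratio depends on the length used.

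**Figure D3:**
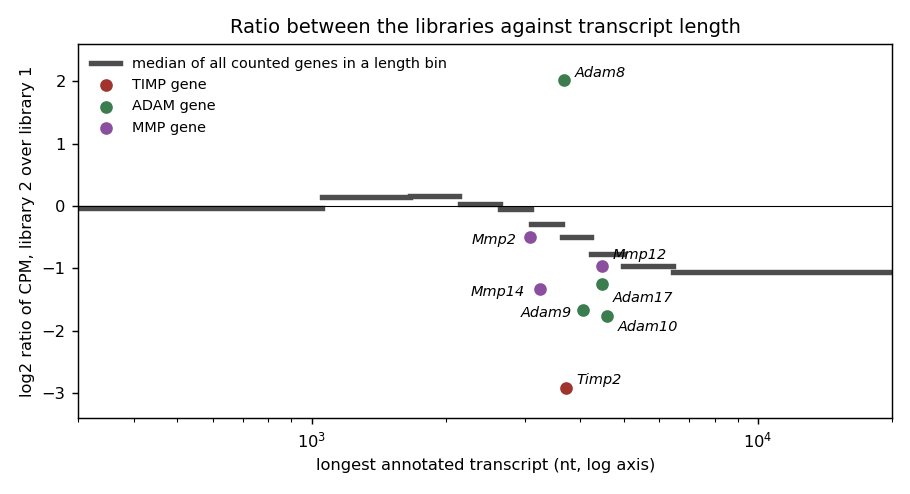
Log2 ratio of CPM, library 2 over library 1, against the longest annotated transcript on a log axis whose ends cut the outermost bins. Horizontal bars give the median of all counted genes in each of 10 length bins, and from the bin of 1657 to 2143 nucleotides upwards they go down from 0.17 to −1.05. Points give the 8 genes, with Timp2 far below and Adam8 far above the bar at their length.

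The other genes of the pathway were read from lists. Of 5 other ADAM proteases, 3 were counted in both libraries, and Adam15 was at the level of the general sheddases. Adam15 had 295 CPM in library 1 against 140 CPM in library 2, or 167 and 64.8 TPM, which was 1.05 and 1.69 times the level of Adam10 per length. Its log2 ratio of −1.07 became 0.37 after the GC and length adjustment. Adam19 (4.79 and 2.41 CPM) and Adam33 (2.57 and 1.41 CPM) were low, and Adam12 and Adam28 were under 10 counts in both libraries. Of 3 ADAM proteins known to lack an active protease site, Adam22 was counted, with 1.58 and 2.65 CPM.

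Mmp8 and Mmp9 were the highest of the other MMP genes and were further apart than any of the 10 genes. Both proteins, neutrophil collagenase and gelatinase B, are stored in neutrophil granules. Mmp8 had 97.4 CPM in library 1 against 1487 CPM in library 2 (log2 ratio 3.93), and Mmp9 had 109 and 1129 CPM (log2 ratio 3.37). Their summed level per length was 1.63 times that of Mmp2, Mmp12 and Mmp14 in library 1 and 39.7 times in library 2. Mmp25, a membrane-bound MMP of leukocytes, had 8.21 and 28.7 CPM (log2 ratio 1.81). Of the 20 other MMP genes, 8 were counted, with 3 over 2-fold higher in library 2 and 1 over 2-fold lower. The one that was lower was Mmp19, with 1.67 and 0.583 CPM. Mmp15, named after its values were seen, was not counted because it had 85 counts in library 1 against 9 in library 2, or 3.64 and 0.219 CPM (log2 ratio −4.05, interval −5.23 to −3.06). Mmp11 (3.72 and 3.96 CPM), Mmp17 (0.470 and 0.243 CPM), Mmp23 (1.71 and 1.99 CPM) and Mmp28 (6.76 and 7.88 CPM) were within 2-fold.

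The counts of these genes were also set against the counts of the 16 neutrophil markers, a measure chosen after their values were seen. Per 1000 neutrophil marker counts, Mmp8 had 19.7 counts in library 1 against 24.7 in library 2, and Mmp9 had 22.0 and 18.8. On this scale both MMP genes were within 2-fold between the libraries. The immature neutrophil markers in this sum were 18.8-fold higher in library 2 and the mature ones 8.79-fold, so the scale depends on their mix. The part of neutrophils in the levels of Mmp8 and Mmp9 was not tested. Mmp25 had 1.66 and 0.478 counts and Adam8 had 4.00 and 1.33 counts. The scale lowers every gene in library 2 by the ratio of the marker sums, 4951 to 60138 CPM, so a gene that was higher by less than that ratio on the CPM scale is lower here by construction. Reck, which encodes a membrane-anchored inhibitor of MMPs, had 0.691 and 0.235 counts on this scale and 3.42 and 14.1 CPM (log2 ratio 2.05). Reck was the 1 counted gene of 3 further inhibitors. Timp4 and A2m were under 10 counts in library 1.

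**Figure D4:**
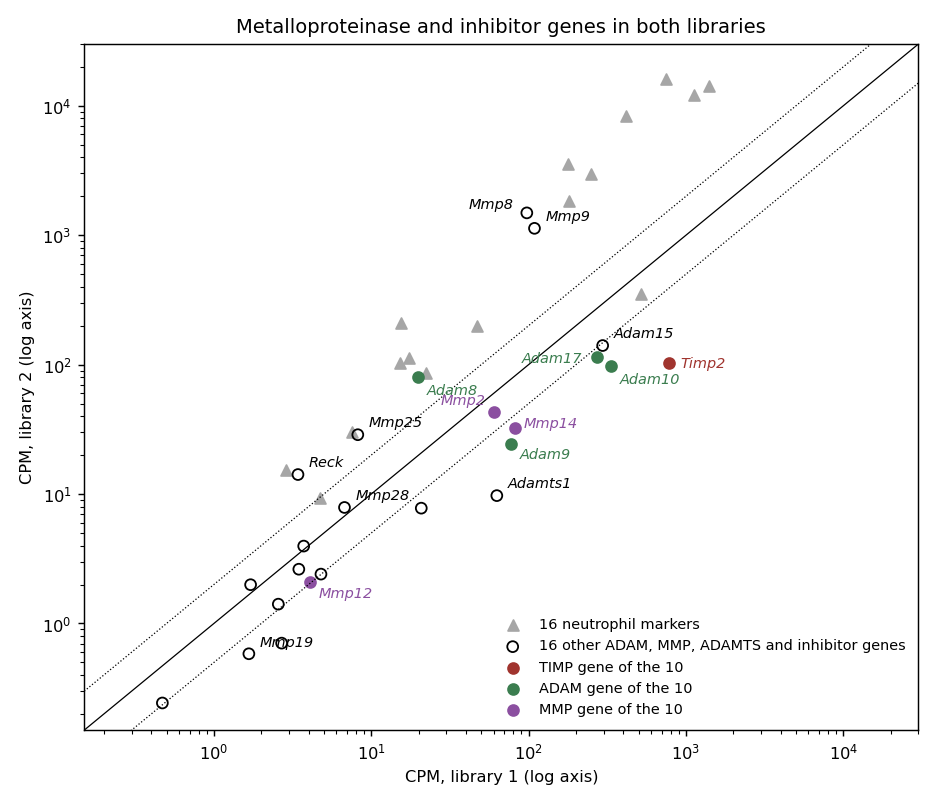
CPM in library 2 against CPM in library 1, both on log axes, for the 8 genes (filled circles), 16 other counted ADAM, MMP, ADAMTS and inhibitor genes (open circles) and 16 neutrophil markers (triangles). The solid line marks equal levels and the dotted lines a 2-fold difference. Mmp8 and Mmp9 lie above the lines with most of the triangles, and Timp2 lies furthest below the lines. The triangles of Csf3r and Stfa2l1 lie inside a 2-fold difference.

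Of 19 ADAMTS proteases, which cut matrix proteoglycans and collagens, 4 were counted and 3 of these were over 2-fold lower in library 2. Adamts1 was the highest, with 62.8 and 9.72 CPM (log2 ratio −2.69, adjusted −1.83). With the GC and length adjustment, 2 of the 4 counted ADAMTS genes were over 2-fold lower and 1 was over 2-fold higher. Of 13 partners and activators of the sheddases, 10 were counted, 4 over 2-fold lower and 2 over 2-fold higher in library 2. After the GC and length adjustment 1 was over 2-fold lower and 3 were over 2-fold higher. Tspan14, a tetraspanin that carries ADAM10 to the cell surface, led this list with 633 and 629 CPM (log2 ratio −0.01). Its level per length was 3.54 times that of Adam10 in library 1 and 11.95 times in library 2. Tspan33, another tetraspanin of ADAM10, had 34.3 and 3.89 CPM (log2 ratio −3.14, adjusted −3.02). Furin, which encodes a convertase that removes the prodomain of ADAM and MMP proteins, had 35.4 and 8.51 CPM (log2 ratio −2.06, adjusted −0.33).

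All 17 listed substrates of the sheddases were counted, with 8 over 2-fold lower and 3 over 2-fold higher in library 2. Csf1r, the receptor of colony-stimulating factor 1, had the highest level with 14910 and 5934 CPM. Over 4-fold lower were Notch1 (78.4 and 12.6 CPM), Notch2 (163 and 34.8 CPM), Tgfa (152 and 28.7 CPM) and Cd163 (48.5 and 10.8 CPM). Over 4-fold higher was Il1r2, a decoy receptor of interleukin 1, with 26.6 and 109 CPM. After the GC and length adjustment 2 substrates were over 2-fold lower and 6 over 2-fold higher. The adjusted log2 ratios were −0.96 for Notch1 and −0.79 for Notch2, both inside a 2-fold difference. Those of Tgfa and Cd163 were −1.54 and −1.24, and those of Il1r2 and Csf1r were 1.80 and 0.21.

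Matrix substrates were low in the sorted cells. Of 8 genes, 3 were counted. Fn1, which encodes fibronectin, had 31.3 and 15.6 CPM, Lamb2 had 15.5 and 2.99 CPM, and Lamc1 had 8.13 and 1.70 CPM, all over 2-fold lower in library 2. After the GC and length adjustment none of the 3 was over 2-fold apart, with Fn1 at 0.43, Lamb2 at −0.69 and Lamc1 at −0.82. Of the 6 genes of clearance receptors and the plasminogen system, 5 were counted, 3 over 2-fold lower and 1 over 2-fold higher. Lrp1, the receptor that takes up proteases bound to their inhibitors, had 1034 and 170 CPM (log2 ratio −2.60, adjusted −0.62), and Mrc2, a collagen receptor, had 38.3 and 5.23 CPM (log2 ratio −2.87, adjusted −1.19). Plaur, the urokinase receptor, which neutrophils also express, had 55.6 and 360 CPM (log2 ratio 2.69, adjusted 2.51).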

How the data were processed

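Microglia of 2 sham mice were profiled by bulk RNA-seq. cDNA was made with the SMART-Seq HT Kit and libraries with Nextera XT. HISAT2 (mapping to GRCm38) and HTSeq (counting by Ensembl gene) were run by the authors, who deposited raw counts. Versions, annotation release and strand setting are not given in the sources used here. Gene names were taken from GENCODE M21 (GRCm38) for 53620 of 53801 identifiers. Starts in the deposited files count from 0 and were raised by 1.

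CPM was the count over all counts on genes. TPM used the longest transcript of each gene, for Adam8 one with a retained intron. Intervals are 95% exact binomial (Clopper-Pearson), and amplified reads are not independent molecules. The GC and length adjustment used 10 bins of each, or GC bins alone under 20 genes. The code for the ratios was run on simulated counts with counting error, known changes and, in part, a length trend. These counts held no spread between mice, so this run checks the code and not the ratios reported here. Alternatives were TMM (edgeR 4.0.16), DESeq2 1.42.0 size factors, totals without mitochondrial genes, other count minimums (1 and 50), other lengths and leaving out each library. Scaling by microglia or neutrophil markers was added after seeing the data. Scripts ran in Python 3.11.15 with pandas 2.3.3, numpy 2.4.6, matplotlib 3.10.9 and scipy 1.17.1, and in R 4.3.3.

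The 10 genes and all lists were chosen with earlier results of these data known. Named beside the 10 genes were counted genes of the other ADAM, MMP and inhibitor lists, the highest gene per length of each pathway list, those over 4-fold apart, the synapsin genes and the leading gene of marker lists over 4-fold apart. The 2 libraries belong to 1 group, so no likeness of pattern across samples was computed. No sequences of amino acids are printed.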

Additional observations from a re-analysis of the deposited data

How the results depend on the processing

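No paired analysis was possible because both libraries belong to 1 group. The number of the 10 genes over 2-fold lower in library 2 was 5, and 4 with DESeq2 size factors, where Adam17 fell inside 2-fold, and 3 after the GC and length adjustment. The shares of all counted genes over 2-fold lower were 25.9%, 19.0% and 12.7% in the same order. The number of the 10 genes over 2-fold higher was 1, and 3 with a minimum of 1 count, which adds Timp1 and Timp3. Over all genes these shares were 5.74%, and 10.1% of the 19207 genes with at least 1 count in both libraries. None of the 6 genes over 2-fold apart changed direction with TMM, DESeq2 size factors, totals without mitochondrial genes, microglia markers or the adjustment. Of all counted genes, 4257 were over 2-fold apart, and 7302 with a minimum of 1 count. Over 2-fold lower were 3485, and 1705 after the adjustment and 5357 with a minimum of 1 count. Over 2-fold higher were 772, and 1248 with DESeq2 size factors, 1303 after the adjustment, 1945 with a minimum of 1 count and 408 with a minimum of 50. Of the genes over 2-fold apart, 56.7% were lower in library 2 after the adjustment. The number of the 10 genes counted was 8 to 10 with one library left out. In the order by level per length, 4 genes changed place with merged exons as length, 6 with the median transcript and 0 to 5 with one library left out, and Timp2 stayed first in each of these. Mean CPM moved by less than 1 SD under every scaling, and with 2 libraries leaving one out always does. Timp1 and Timp3 had 2 and 3 counts in library 1, which leaves their ratios with wide intervals.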
